A study of Mus musculus with 64 samples.

Results

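Bile acid synthesis enzymes were described as 10 genes of the 23338 in each count table, and all 10 symbols were found in every file. They were Cyp7a1, Cyp7b1, Cyp8b1, Cyp27a1, Hsd3b7, Akr1d1, Amacr, Acox2, Slc27a5 and Baat, listed by name, with no threshold on a measured value. RNA-seq libraries came from 64 samples of inbred C57BL/6J mice at 4 stages, with no genetic change in any group. Eight-cell embryos from natural matings (6 male, 6 female) were each made into 1 amplified library from the cells of 1 embryo. The 2i ES cells (2 male, 2 female) were lines grown in medium with MEK and GSK3 inhibitors, and each line had been derived from 1 embryo. Livers were from late-gestation fetuses (12 male, 12 female) and from adults aged 15 to 20 weeks (12 male, 12 female), which were kept on standard chow and killed in the late morning. Groups follow the stage and gender labels. Separate embryos, lines and animals were the replicates.

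Bile acids are made from cholesterol in hepatocytes, carry cholesterol out of the body and help to absorb dietary fat. In the classic route Cyp7a1 adds the first hydroxyl group to cholesterol and sets the rate, and Cyp8b1 then directs the product to cholic acid. In the alternative route Cyp27a1 first oxidises the side chain of cholesterol and Cyp7b1 hydroxylates the resulting oxysterol. Hsd3b7 and Akr1d1 change the sterol ring in both routes, Amacr and Acox2 shorten the side chain in peroxisomes, and Slc27a5 and Baat join bile acids to coenzyme A and then to taurine or glycine.

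Reads on genes per library numbered 9857929 to 10386931 in ES cells, 4659656 to 7725432 in embryos and 5145371 to 8499603 in fetal livers. Adult livers were shallower, with 1567583 to 4757610 reads. Levels are given in CPM, the reads of a gene per 1000000 reads on genes, with TMM scaling, which corrects for the make-up of each library. In a single library 3 reads correspond to 0.631 to 1.91 CPM in adult liver and to 0.353 to 0.583 CPM in fetal liver. Reads outside genes took 39.9 to 49.0% of fetal male and 34.1 to 38.1% of fetal female libraries, so this property of the libraries and the gender label cannot be told apart in fetal liver. Reads aligned to several places took 42.2 to 61.1% of reads in adult male and 32.7 to 43.2% in adult female livers, groups that barely overlap. The summed CPM of 8 hepatocyte markers was 72227 to 97359 in adult and 44182 to 60105 in fetal liver, against 4.77 to 8.96 in ES cells and 8.37 to 78.9 in embryos. The labelled liver was thus seen in its defining markers, and none of the 8 was at 0 in either liver stage.

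All 10 enzymes had their highest mean CPM in adult liver, as the plot of all libraries shows. For 9 of them mean CPM was also higher in fetal liver than in both earlier stages. The exception was Cyp7b1, whose reads were fewer in fetal liver than in ES cells. No read of Cyp7a1, Cyp8b1 or Acox2 was counted in any ES line or any embryo. Over the group, 3 reads would be 0.0740 CPM in the ES cells and 0.0410 CPM in the embryos, so lower levels were not detectable at this depth.

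**Figure D1:**
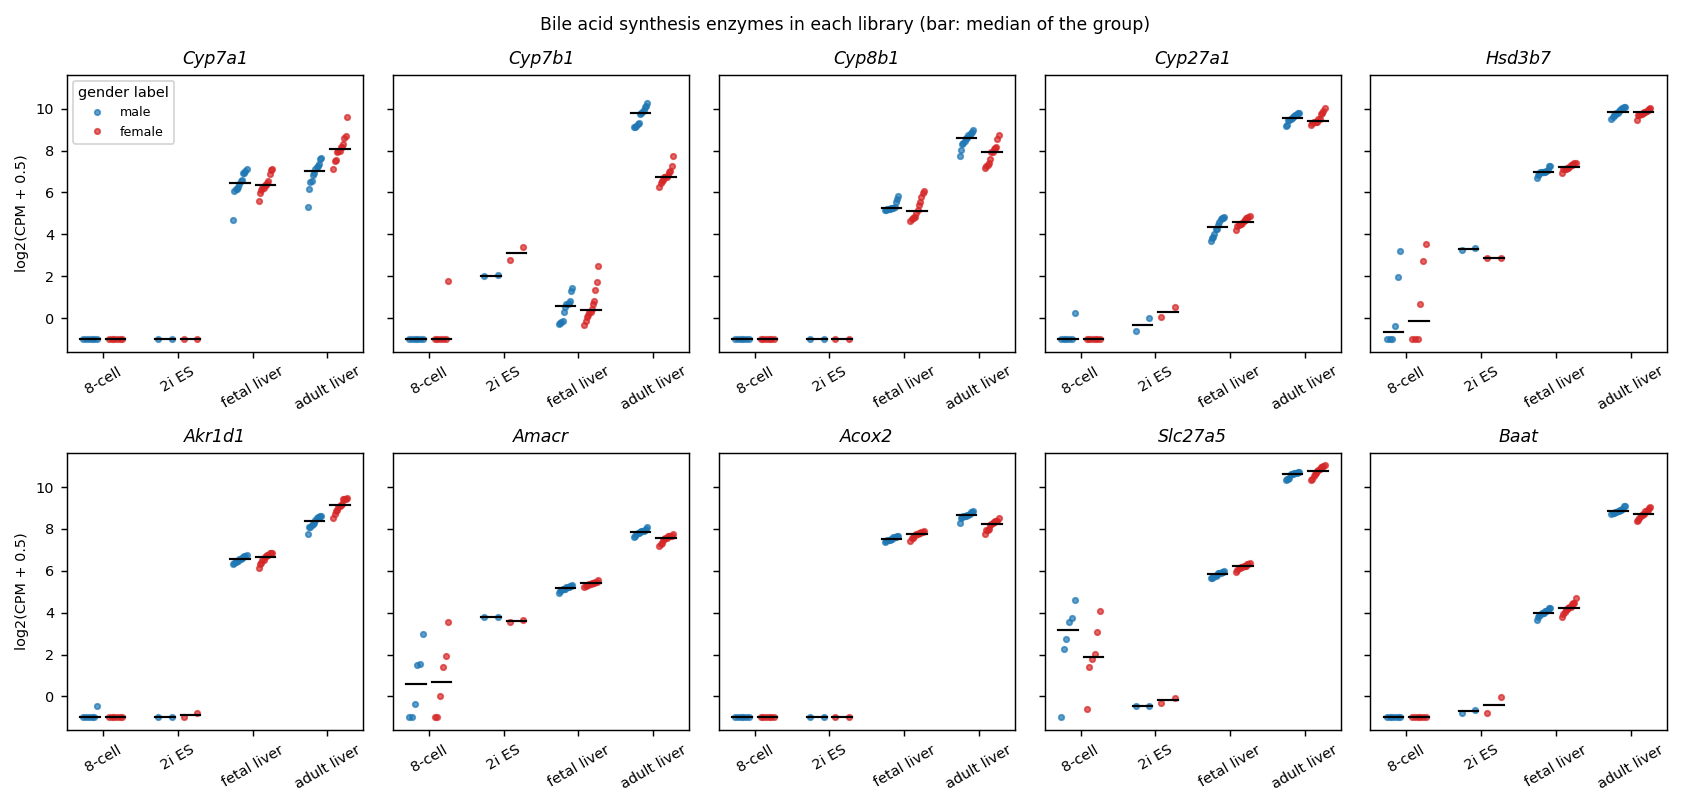
Level of each enzyme, as log2(CPM + 0.5), in all 64 libraries by stage, with male libraries in blue, female libraries in red and a bar at each group's median. The points for Cyp7a1, Cyp8b1 and Acox2 lie on the lower edge in every embryo and ES line, and for Cyp7b1 the 12 adult males lie above the 12 adult females.

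Divided by exonic length, the order of the enzymes changed between the stages. In fetal liver the first place was held by Acox2, with a mean of 50.1 CPM per kb in males and 56.9 in females, followed by Hsd3b7 with 46.2 and 54.2 CPM per kb. Acox2 stood above Hsd3b7 in 10 of 12 livers of either gender, although their ranges overlapped. The lowest was Cyp7b1 with 0.455 CPM per kb in males and 0.630 in females, below Baat in all 12 livers of either gender.

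In adult liver Slc27a5 led, with a mean of 626 CPM per kb in males and 710 in females. The next place differed by gender. In males Cyp7b1 (386 CPM per kb), Cyp27a1 (349) and Hsd3b7 (334) followed, and these neighbours did not differ beyond their spread, with Cyp7b1 above Cyp27a1 in 6 of 12 livers. In females Cyp27a1 (348 CPM per kb) and Hsd3b7 (325) followed, again with Cyp27a1 ahead in 6 of 12 livers. The last place was taken by Cyp7a1 in males (30.5 CPM per kb), below Amacr in all 12 livers. In females Cyp7b1 was last (54.0 CPM per kb), below Amacr in 11 of 12 livers.

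**Figure D2:**
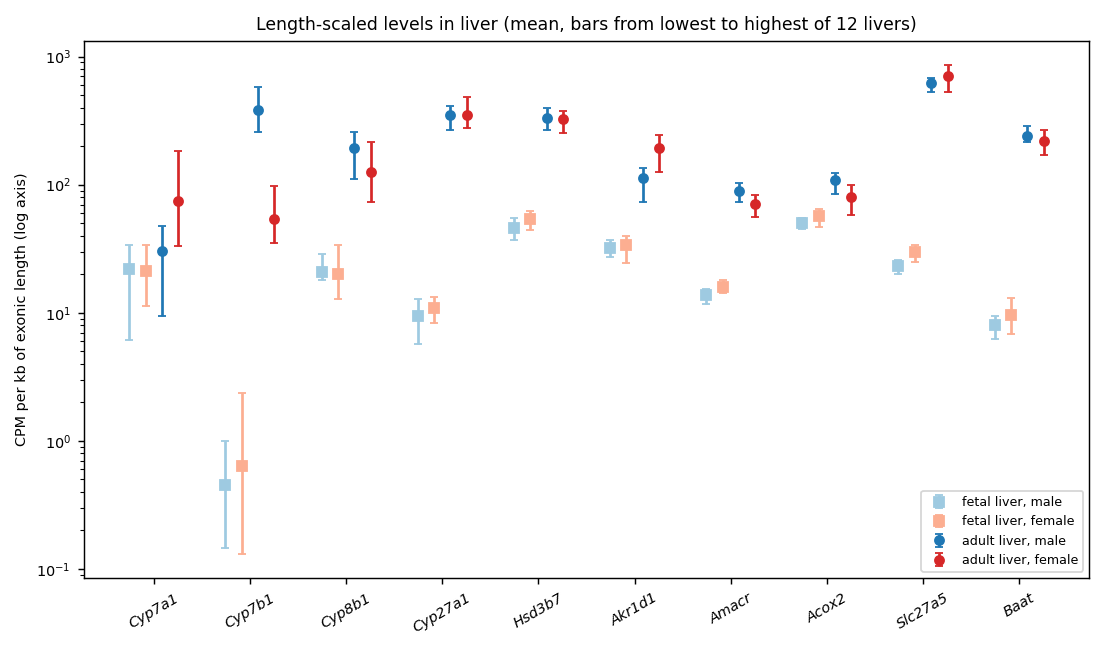
Level per kb of exonic length, on a log axis, for each enzyme in fetal (squares) and adult liver (circles) of males (blue) and females (red), where the symbol is the mean and the bar runs from the lowest to the highest of 12 livers. The axis spans the range from Cyp7b1 in fetal males, at 0.455 CPM per kb on average, to Slc27a5 in adult females, at 710 CPM per kb.

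The comparison of adult with fetal liver asks how far the enzymes were expressed before birth. All 10 enzymes were higher in adult liver, at the study's thresholds of an adjusted p under 0.1 and an absolute log2 difference above 0.5 (edgeR quasi-likelihood test, Benjamini-Hochberg adjustment). Over all 12875 genes tested 67.0% were called in either direction and 31.7% were called higher in adult liver. Cyp7b1 had few reads in fetal liver and entered this fit through its adult level, so its direction was fixed in advance. The median log2 difference was 2.94 over the enzymes and -0.05 over all genes tested. For the 8 hepatocyte markers it was 0.97, with 6 of the 8 called higher. In whole livers a smaller share of hepatocytes and less RNA per hepatocyte cannot be told apart. The summed CPM of 9 erythroid markers was 3647 to 5447 in fetal and 19.3 to 251 in adult liver, and their part in these differences was not tested. The 4 globin genes of that list had almost no counts at either stage, with at most 0.708 CPM in any fetal liver and 0 in adult liver, so the sums rest on the other 5 markers.

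In the classic route, fetal livers already had substantial Cyp7a1. Its level was 25.4 CPM at the lowest, 82.3 at the median and 141 at the highest in 24 fetal livers, and 39.4, 183 and 769 CPM in 24 adult livers. The stages overlapped, and 16 adult livers lay above every fetal liver. The log2 difference was 1.27 ± 0.20 (SE; adjusted p = 8.47e-08, edgeR), which was 0.56 in males alone and 1.91 in females alone. With library totals alone as the scaling, the Cyp7a1 difference over both genders was 0.71. Mean CPM by library totals was 102.96 in fetal and 102.71 in adult males, against 96.5 and 252 in females. The higher Cyp7a1 of adult males thus depended on the TMM scaling. Cyp8b1 was 24.8 CPM at the lowest, 37.1 at the median and 66.2 at the highest in fetal liver. In adult liver the same values were 144, 303 and 500 CPM, so the stages did not overlap. Its log2 difference was 3.04 ± 0.13 (SE; adjusted p = 2.72e-26, edgeR).

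The enzymes of the alternative route differed more between the stages. Cyp7b1 was nearly silent in fetal liver, with 0.284 CPM at the lowest, 0.890 at the median and 5.12 at the highest, from 2 to 39 reads per library. In adult liver it reached 75.6, 384 and 1245 CPM, and all 24 adult livers lay above all fetal livers. The log2 difference was 8.40 ± 0.29 (SE; adjusted p = 7.49e-30, edgeR), with 9.77 in males alone and 6.48 in females alone. Cyp7b1 entered this fit through its adult level, so its direction was fixed in advance. Among all genes tested, 98.8% had a smaller absolute difference. Cyp27a1 went from 12.4, 22.4 and 28.6 CPM (lowest, median, highest) in fetal liver to 584, 734 and 1046 CPM in adult liver, again without overlap. This was a log2 difference of 5.21 ± 0.09 (SE; adjusted p = 1.44e-47, edgeR). Thus Cyp7a1 was above Cyp27a1 in CPM per kb in fetal liver, and Cyp27a1 was above Cyp7a1 in adult liver.

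Conjugation enzymes formed the next group by size. Slc27a5, the bile acyl-CoA synthetase, was 49.2, 62.3 and 82.6 CPM (lowest, median, highest) in fetal liver and 1284, 1614 and 2091 CPM in adult liver. Its log2 difference of 4.77 ± 0.05 (SE) had the lowest adjusted p of the 10 enzymes, 2.21e-57 by edgeR. Baat, which makes the taurine and glycine conjugates, was 12.2, 16.8 and 25.4 CPM in fetal and 331, 450 and 555 CPM in adult liver. The log2 difference was 4.82 ± 0.07 (SE; adjusted p = 1.11e-52, edgeR). Neither gene overlapped between the stages.

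The ring and side chain enzymes were already present in the fetus and rose less than the conjugation enzymes. Hsd3b7 was 103, 137 and 172 CPM in fetal and 708, 906 and 1095 CPM in adult liver (lowest, median, highest), with a log2 difference of 2.83 ± 0.05 (SE). Exons of Hsd3b7 overlap those of 2 other annotated genes, 1 of them on the same strand, so its counts are less certain. Akr1d1, the reductase that sets the bent shape of the bile acid ring, was 70.6, 94.96 and 115 CPM in fetal and 213, 390 and 703 CPM in adult liver. Its log2 difference was 2.27 ± 0.09 (SE).

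Amacr, which inverts a methyl group's configuration before the side chain is cut, was 30.5, 38.3 and 47.1 CPM in fetal and 146, 203 and 270 CPM in adult liver. Its log2 difference was 2.54 ± 0.06 (SE). Acox2, the oxidase of the branched side chain, showed the smallest difference of the 10, from 166, 196 and 237 CPM in fetal liver to 215, 349 and 460 CPM in adult liver. The log2 difference was 0.92 ± 0.06 (SE; adjusted p = 5.85e-20, edgeR), and the stages overlapped by 1 adult liver, since 23 adult livers lay above all fetal livers. With library totals alone as the scaling, the Acox2 difference was 0.35 and no longer above the log2 threshold. That scaling moved the median of all genes tested to -0.61. The share of calls that were higher in adult liver went from 47.3 to 25.4%. The other 9 enzymes were still called with both genders in the fit, although mean Cyp7a1 was then no higher in adult than in fetal males.

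**Figure D3:**
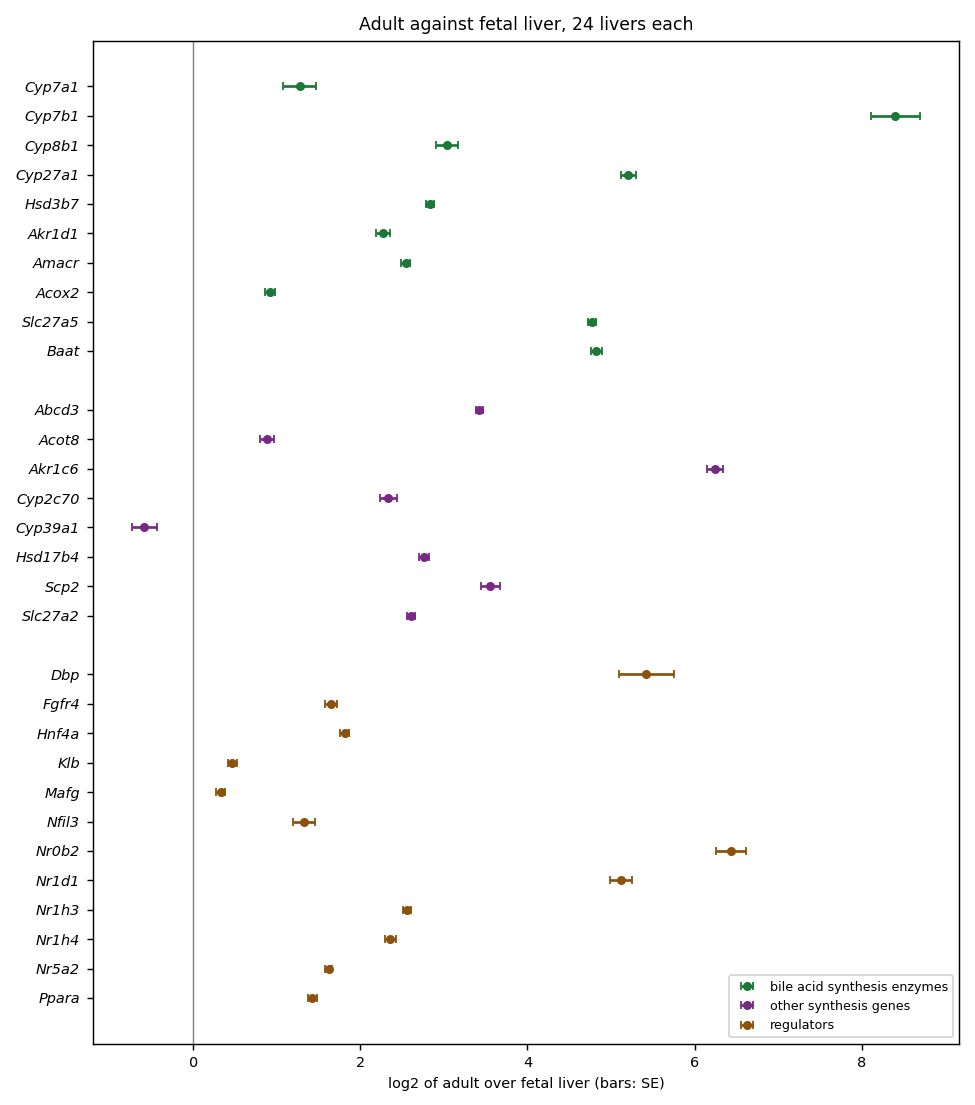
Log2 difference of adult over fetal liver, with its SE as the bar, for the 10 enzymes (green), 8 other synthesis genes (purple) and 12 regulators (brown) that were tested. The points for the enzymes run from 0.92 for Acox2 to 8.40 for Cyp7b1, and the only point below 0 is Cyp39a1.

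Other genes of the pathway were described from a list of 10, of which 8 were tested. In adult against fetal liver 7 were higher and 1 was lower, with a median log2 difference of 2.68. Of all 12875 genes tested there, 4079 were called higher and 4543 lower. Akr1c6, a hydroxysteroid dehydrogenase, was higher by 6.24 ± 0.10 (log2, SE). The peroxisomal proteins Scp2, Abcd3 and Hsd17b4, which thiolyse, import and oxidise side chain intermediates, were higher by 3.55 ± 0.11, 3.43 ± 0.05 and 2.76 ± 0.05. Slc27a2, another acyl-CoA synthetase, was higher by 2.61 ± 0.05. Cyp39a1, which like Cyp7b1 hydroxylates an oxysterol, went the other way and fell by 0.59 on the log2 scale (adjusted p = 0.000312, edgeR), from a mean of 55.3 ± 9.82 CPM in fetal to 36.2 ± 19.6 CPM in adult liver (SD, n = 24 each). Its log2 difference of male over female was -1.38 ± 0.17 in adult and 0.18 ± 0.09 in fetal liver (SE). These gender effects differed by -1.51 ± 0.19 (SE, adjusted p = 4.88e-08, edgeR), so the pooled fall was not shared alike by both genders.

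Of 13 regulators 12 were tested, and 10 were higher in adult liver with none lower, beside 31.7% of all genes tested called higher. Nr1h4, the bile acid receptor FXR, was higher by 2.36 ± 0.06 (log2, SE). Nr1h3, the oxysterol receptor LXR alpha, was higher by 2.56 ± 0.05, and Nr5a2, which activates Cyp7a1 and Cyp8b1, by 1.62 ± 0.04. Fgfr4, the receptor of the gut hormone that lowers Cyp7a1, was higher by 1.65 ± 0.07. The clock factors Dbp and Nr1d1 were higher by 5.42 ± 0.33 and 5.12 ± 0.13. Dbp spanned 2.91 to 105 CPM among the adult livers.

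In the earlier comparisons the lists moved as follows. Fetal liver against ES cells gave 7 of 8 other synthesis genes higher and none lower, and 7 of 11 regulators higher and 3 lower. Of all 14333 genes tested there, 5802 were called higher and 5192 lower. Dbp, Nr1d1 and Nr5a2 were the lower regulators, by -2.16 ± 0.24, -1.63 ± 0.25 and -1.56 ± 0.06 (log2, SE). ES cells against embryos gave 3 of 5 other synthesis genes higher, namely Slc27a2, Hsd17b4 and Abcd3, and 1 of 8 regulators higher and 4 lower. Of all 12478 genes tested there, 4693 were called higher and 3419 lower. Nr1h3 was at 14.9 to 67.8 CPM in the embryos and at 0.289 to 0.509 CPM in the ES lines, and Fgfr4 at 5.64 to 40.3 and 0.433 to 1.41 CPM. Both receptors were thus higher in every embryo than in any ES line, where library protocol and stage cannot be told apart.

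Promoter sequence could be matched for 5 of the 10 enzymes in RefSeq (GRCm38.p6), namely Cyp27a1, Akr1d1, Hsd3b7, Cyp8b1 and Acox2, and the 250 bases before the start were searched on both strands. The searched letters were AGGTCA, the core element of many nuclear receptor sites, CAAGGTCA and CAAGGCCA, sites of the Nr5a2 kind, CAAAGTCCA, of the Hnf4a kind, and TATAAA, which marks many core promoters. AGGTCA lies within CAAGGTCA, so these overlap. Matches were found for Cyp8b1 and Akr1d1 only, and these promoters are printed with the matches in capitals.
Cyp8b1, GRCm38.p6 chr9:121916306-121916555, minus strand: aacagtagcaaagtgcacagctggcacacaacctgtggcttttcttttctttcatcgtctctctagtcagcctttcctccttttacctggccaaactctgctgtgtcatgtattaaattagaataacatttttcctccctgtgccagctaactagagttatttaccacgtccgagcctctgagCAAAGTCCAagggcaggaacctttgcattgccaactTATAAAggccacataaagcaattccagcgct
Akr1d1, GRCm38.p6 chr6:37529923-37530172, plus strand: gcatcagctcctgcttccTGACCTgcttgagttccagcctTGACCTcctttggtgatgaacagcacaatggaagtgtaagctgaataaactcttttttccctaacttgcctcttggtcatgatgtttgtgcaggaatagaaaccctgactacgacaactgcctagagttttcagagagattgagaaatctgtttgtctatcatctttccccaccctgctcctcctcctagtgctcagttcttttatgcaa

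In Cyp8b1, CAAAGTCCA lies 67 to 59 bases and TATAAA 31 to 26 bases before the start. In Akr1d1, AGGTCA was found 2 times on the opposite strand, at 232 to 227 and 210 to 205 bases before the start. Of 32817 promoters of the same length, 0.384% held CAAAGTCCA, 12.4% TATAAA and 14.03% AGGTCA, so the last 2 are common. For the other motifs the shares were 1.33% for CAAGGTCA and 1.99% for CAAGGCCA. The genes lie at chr9:121914356-121916305 (Cyp8b1, a gene of 1 exon) and chr6:37530173-37568815 (Akr1d1) in GRCm38.

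Fetal liver against 2i ES cells asks which enzymes appeared with the liver. All 10 enzymes were called, with 9 higher in fetal liver and Cyp7b1 lower. Over all 14333 genes tested 76.7% were called and 40.5% were called higher in fetal liver. With few or no reads in the ES lines, Cyp7a1, Cyp8b1, Acox2, Akr1d1, Baat, Slc27a5 and Cyp27a1 entered this fit through their fetal level. Their direction was thus fixed in advance, and the count of enzymes called is not read against the share of all genes. The ES lines had 0 reads of Cyp7a1, Cyp8b1 and Acox2. Against 3 reads over the 4 lines, pooled CPM in fetal liver was at least 1375-fold higher for Cyp7a1, at least 602-fold higher for Cyp8b1 and at least 2982-fold higher for Acox2. Akr1d1 had 1 read, in female line 4, and the pooled ratio was 4337 with an exact interval of 778 to 171320 that covers counting error only.

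The other enzymes had reads in every ES line. Baat had 1 to 6 reads per line and Slc27a5 3 to 6, and they were higher in fetal liver by 6.30 ± 0.25 and 7.58 ± 0.14 (log2, SE). Cyp27a1, with 2 to 12 reads per line, was higher by 5.26 ± 0.29. As stated above, the direction was fixed in advance for Baat, Slc27a5 and Cyp27a1. Hsd3b7 was 8.89, 9.75, 6.84 and 6.83 CPM in lines 1 to 4 and was higher in fetal liver by 3.99 ± 0.12 (log2, SE). Amacr was 13.4, 13.5, 11.2 and 11.9 CPM in the lines and was higher by 1.51 ± 0.07, the smallest rise.

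Cyp7b1 was 3.61 and 3.57 CPM in the male lines and 9.92 and 6.44 CPM in the female lines. All 4 lines were above the fetal median of 0.890 CPM, and 1 fetal liver, female 22 with 5.12 CPM, was above the male lines. The log2 difference of fetal liver over ES cells was -2.35 ± 0.37 (SE; adjusted p = 7.88e-07, edgeR). The enzyme that rose most between fetal and adult liver was also the one that was lower in fetal liver than in ES cells. Both differences use the same low fetal level, so they are not separate observations.

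ES cells and eight-cell embryos were made into libraries by different protocols, so protocol and stage cannot be told apart between them. Of the 10 enzymes 4 had enough reads to be tested, 2 were called, and 65.0% of all 12478 genes tested were called. Slc27a5 was the enzyme seen in most embryos, with reads in 11 of 12. In males 1 to 6 it was 6.28, 12.7, 0, 4.29, 11.2 and 23.9 CPM, and in females 7 to 12 it was 2.96, 16.6, 3.51, 2.18, 7.83 and 0.161 CPM. Thus 10 of 12 embryos were above the ES lines, which had 0.217 to 0.461 CPM. The log2 difference of ES cells over embryos was -4.63 ± 1.38 (SE; adjusted p = 0.00825, edgeR). Slc27a5 entered this fit through its level in the embryos, so its direction was fixed in advance.

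Cyp7b1 had reads in a single embryo, female 12, with 18 reads or 2.90 CPM. The log2 difference of ES cells over embryos was 5.85 ± 1.43 (SE; adjusted p = 0.00208, edgeR). The other 11 embryos had 0 reads, so no fold is given without that embryo. Cyp7b1 entered this fit through its level in the ES lines, so its direction was fixed in advance. Hsd3b7 had reads in 6 of 12 embryos and up to 11.2 CPM, and Amacr in 8 of 12 and up to 11.1 CPM. Their log2 differences were 1.55 ± 1.49 (SE; adjusted p = 0.385, edgeR) and 2.21 ± 1.24 (SE; adjusted p = 0.135, edgeR). The Amacr call depended on the processing. It was made by DESeq2 (2.56, adjusted p = 0.0833), with the size factors of DESeq2 in edgeR (2.55, adjusted p = 0.0807), with library totals as the scaling (2.64, adjusted p = 0.0695, edgeR) and without embryo 12 (2.82, adjusted p = 0.0567, edgeR). Cyp27a1 had 5 reads in male 6, Akr1d1 had 2 reads in male 4, and Baat had none in any embryo.

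Between genders in adult liver, 4 of the 10 enzymes were called, beside 9.49% of all 10372 genes tested. Cyp7b1 and Cyp8b1 were higher in males, and Cyp7a1 and Akr1d1 were higher in females. With the share of reads aligned to several places as a covariate, the calls of both classic route enzymes, Cyp7a1 and Cyp8b1, were lost (adjusted p = 0.213 and 0.557, edgeR). In the alternative route Cyp27a1 was not called beside Cyp7b1. No enzyme was called in this way in fetal liver, as the plot of the differences by gender shows.

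Cyp7b1 was 558 CPM at the lowest, 875 at the median and 1245 at the highest in 12 adult males, and 75.6, 107 and 211 CPM in 12 females. The genders did not overlap. The log2 difference of male over female was 2.82 ± 0.18 (SE; adjusted p = 1.07e-11, edgeR). Among all genes tested, 99.4% had a smaller absolute difference.

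Cyp7a1 was 39.4, 131 and 198 CPM in males and 139, 270 and 769 CPM in females (lowest, median, highest). The genders overlapped, with 9 females above every male and 6 males below every female. The log2 difference was -1.30 ± 0.25 (SE; adjusted p = 0.000483, edgeR). The highest female, liver 13, stood at 769 CPM with the next at 414 CPM, and without it the difference was -1.10 (adjusted p = 0.000603, edgeR).

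Akr1d1 was 213, 330 and 392 CPM in males and 366, 558 and 703 CPM in females. In 11 of 12 females it was above every male. The log2 difference was -0.80 ± 0.10 (SE; adjusted p = 3.81e-07, edgeR). Cyp8b1 was 215, 382 and 500 CPM in males and 144, 245 and 424 CPM in females, with 5 males above every female. Its log2 difference of 0.60 ± 0.18 (SE; adjusted p = 0.0136, edgeR) was close to the threshold on size.

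The share of reads aligned to several places moved with the gender label in adult liver. In a fit with that share as a covariate, chosen after seeing the data, 2 of the 4 calls remained, those of Cyp7b1 at 1.92 (adjusted p = 1.09e-07, edgeR) and Akr1d1 at -0.71 (adjusted p = 0.0117, edgeR). Cyp7a1 was then at -1.0001 (adjusted p = 0.213, edgeR) and Cyp8b1 at 0.37 (adjusted p = 0.557, edgeR). All 4 calls were made without the 7 adult livers under 2000000 reads, with differences of 2.82, -1.29, -0.71 and 0.68 for Cyp7b1, Cyp7a1, Akr1d1 and Cyp8b1.

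Other cell types and hepatocyte markers also moved with the gender label. The summed CPM of the 8 hepatocyte markers was 72227 to 87041 in males and 83777 to 97359 in females, and 1 of the 8 was called, lower in males. The sum of 9 erythroid markers was 194 to 251 CPM in males and 19.3 to 57.9 CPM in females. Nearly all of it was Alas2 (212 ± 18.8 against 29.97 ± 9.31 CPM, SD, n = 12 each). The sum of 6 macrophage markers was 382 to 661 CPM in males and 505 to 1118 CPM in females, and that of 5 endothelial markers was 405 to 497 and 475 to 579 CPM. The part of these values in the gender differences was not tested.

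The remaining enzymes differed less between adult males and females. Acox2 (0.42 ± 0.07) and Amacr (0.30 ± 0.06) were higher in males and Slc27a5 (-0.20 ± 0.06) was higher in females (log2, SE), all with an adjusted p under 0.1 by edgeR but under the threshold on size. With the share of reads aligned to several places as a covariate, none of the 3 had such a p, with 0.13 for Acox2, 0.17 for Amacr and -0.28 for Slc27a5 (adjusted p = 0.607, 0.434 and 0.148, edgeR). In all, 7 of the 10 enzymes had an adjusted p under 0.1, beside 32.8% of all genes tested. Hsd3b7 differed by 0.01 (95% CI -0.11 to 0.14), Cyp27a1 by -0.02 (95% CI -0.18 to 0.14) and Baat by 0.13 (95% CI -0.002 to 0.25). For these 3 genes the intervals exclude a difference of 0.5 either way in this fit, which has no covariate. Over 8 alternative fits Hsd3b7, Cyp27a1 and Baat differed by -0.05 to 0.04, -0.22 to 0.01 and -0.02 to 0.15.

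**Figure D4:**
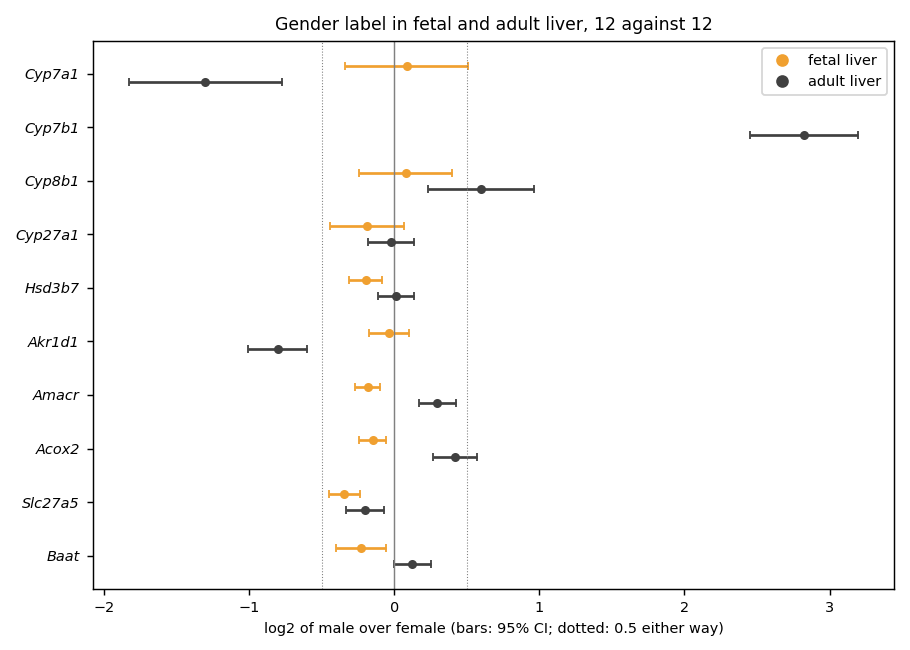
Log2 difference of male over female, with its 95% confidence interval, for each enzyme in fetal liver (orange) and adult liver (black), 12 livers of each gender per stage. The dotted lines mark 0.5 either way; 4 adult points lie outside them (Cyp7b1, Cyp7a1, Akr1d1 and Cyp8b1) and no fetal point does, with Cyp7b1 not tested in fetal liver.

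Of the 8 other synthesis genes tested in adult liver, 1 was called higher and 1 lower in males, beside 9.49% of all 10372 genes tested called in either direction. Scp2 was at 6256 ± 506 CPM in males against 2715 ± 200 CPM in females (SD, n = 12 each), which gave a log2 difference of 1.18 ± 0.05 (SE; adjusted p = 5.77e-18, edgeR). Cyp39a1 was at 20.5 ± 7.46 CPM in males against 51.8 ± 14.5 CPM in females, which gave a log2 difference of -1.38 ± 0.17 (SE; adjusted p = 8.33e-07, edgeR). The oxysterol hydroxylases Cyp7b1 and Cyp39a1 were thus higher in opposite genders. The other 6 differed by -0.15 to 0.37, of which Hsd17b4 (0.37) and Slc27a2 (0.15) had an adjusted p under 0.1 by edgeR. Of the 12 regulators tested in adult liver none was called by edgeR or DESeq2 (3 at an unadjusted p under 0.05 by edgeR). That is near the 9.49% of all genes called by edgeR, so it is not read as a result about the regulators. Nr1h4, Nr5a2, Nr1h3, Fgfr4, Dbp and Nr1d1 differed by -0.11, 0.09, 0.01, -0.04, 0.38 and 0.17. Klb, the co-receptor of Fgfr4, and Mafg, named here after their values were seen, were under the threshold on size at -0.48 (adjusted p = 7.74e-06, edgeR) and 0.26 (adjusted p = 0.0341, edgeR).

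In fetal liver 0 of the 9 enzymes tested were called between genders, beside 4.64% of all 12930 genes tested; DESeq2 also called 0, and 5 had an unadjusted p under 0.05 by edgeR. These 5 also had an adjusted p under 0.1 and were all lower in males, beside 37.2% of all genes tested with such a p and 19.5% with such a p and lower in males. Slc27a5 was 49.2, 56.9 and 62.7 CPM in males and 60.6, 73.8 and 82.6 CPM in females (lowest, median, highest), with 11 females above every male. Its log2 difference was -0.34 ± 0.05 (SE; adjusted p = 1.40e-05, edgeR). Baat, Hsd3b7, Amacr and Acox2 were at -0.23, -0.20, -0.18 and -0.15.

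With the share of reads outside genes as a covariate, none of the 5 passed, and their adjusted p by edgeR was 0.575 to 0.982. That share separates the genders fully in fetal liver, so this fit has little power for any gene. It cannot decide whether these 5 differ between genders. The log2 differences were then -0.37 for Slc27a5 and -0.32 for Baat. Cyp7a1 (0.09, 95% CI -0.34 to 0.51) and Cyp8b1 (0.08, 95% CI -0.24 to 0.40) had wide intervals in fetal liver. Cyp7b1 had too few reads to be tested, at 0.986 ± 0.616 CPM in males and 1.37 ± 1.38 CPM in females (SD, n = 12 each).

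The difference between the adult and the fetal gender effect was tested as an interaction. It was called for 6 enzymes, beside 13.7% of all 13026 genes tested. The adult effect was more towards males for Cyp7b1 (3.30 ± 0.50), Acox2 (0.62 ± 0.09), Cyp8b1 (0.56 ± 0.24) and Amacr (0.53 ± 0.08). It was more towards females for Cyp7a1 (-1.34 ± 0.33) and Akr1d1 (-0.72 ± 0.13; all log2, SE). Cyp7b1 entered this fit through its adult level, and its fetal part rests on 86 reads in all males and 129 in all females, too few to be tested in fetal liver alone. Amacr and Acox2 were lower in fetal males and higher in adult males, at an adjusted p under 0.1 but under the threshold on size at either stage, and both genes lost that p with the covariate used at each stage. The Amacr interaction was 0.49, under that threshold, with library totals as the scaling and also without the 7 shallow adult livers. With the share of reads outside genes as a covariate the calls of Cyp7b1 (3.99, adjusted p = 0.0183, edgeR) and Acox2 (0.56, adjusted p = 0.0124, edgeR) remained, and the other 4 were not called. That share separates the genders in fetal liver, so this fit has low power. A lost call does not show that a difference is absent.

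How much livers of 1 gender and stage varied differed among the enzymes, and in adult liver of either gender Cyp7a1 varied most. Among adult females the coefficient of variation was 53.3% for Cyp7a1, 36.5% for Cyp8b1 and 30.5% for Cyp7b1, where counting alone would give 4.03, 4.59 and 6.58%. Among adult males it was 38.2% for Cyp7a1 and 29.1% for Cyp7b1. Over the 4 liver groups it was 17.3 to 37.4% for Cyp8b1, 13.6 to 28.0% for Cyp27a1 and 10.01 to 20.8% for Akr1d1. For Hsd3b7, Amacr, Acox2, Slc27a5 and Baat it lay between 6.54% (Amacr, fetal females) and 18.1% (Baat, fetal females). In fetal liver it was 35.9% among males and 32.3% among females for Cyp7a1, and 7.63% and 6.54% for Amacr. The largest fetal values were those of Cyp7b1, at 62.5% among males and 101% among females. They rest on 2 to 39 reads per library, where counting alone would give 37.4 and 30.5%.

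Whether the other enzymes varied with Cyp7a1 was examined across the 24 adult livers, on log2 CPM centred within gender, in 9 relations. Akr1d1 varied with Cyp7a1 (Pearson r = 0.60, permutation p = 0.00277, adjusted p = 0.0249; Spearman rho = 0.57, permutation p = 0.00483, adjusted p = 0.0435; two-sided, 100000 permutations within gender). The relation had r = 0.60 in either gender. Without the 2 livers farthest from the median of Cyp7a1, male 11 and female 13, r was 0.38 (permutation p = 0.0918), so the relation rests on those livers. It was 0.36 among the 17 livers with over 2000000 reads and 0.78 among the 7 others. The other 8 relations had r from -0.36 for Cyp7b1 to 0.41 for Hsd3b7 and adjusted permutation p of 0.208 or more. The plot of both hydroxylases shows the adult livers in separate clusters by gender, so r was taken only after centring within gender.

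**Figure D5:**
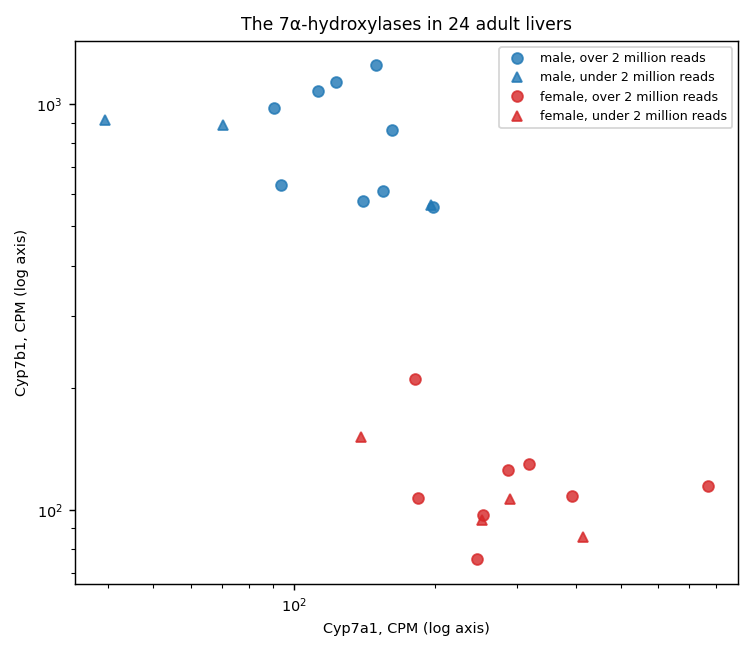
Cyp7b1 against Cyp7a1 in CPM, both on log axes, in 24 adult livers, with males in blue, females in red and triangles for the 7 livers with under 2000000 reads on genes. Males form a group at 558 to 1245 CPM of Cyp7b1 and females a group at 75.6 to 211 CPM, while the genders overlap along Cyp7a1.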

How the data were processed

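Strand-specific total RNA libraries (ES cells, livers) and amplified embryo libraries were sequenced by the authors. Per the labels and the study's methods, reads were aligned to mm10 with TopHat 2.0.4 and Bowtie2 2.1.0, duplicates were removed with Picard, and genes were counted with HTSeq (version and strand setting not given in the sources used here). The deposited values are raw counts per gene, without normalization. The 5 summary lines of each file were left out of totals. Reads that align to several places are not counted, so genes with near-identical copies are undercounted, and removing duplicates compresses high counts.

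Counts were tested with edgeR 4.0.16 (R 4.3.3; TMM, filterByExpr, robust quasi-likelihood fit, Benjamini-Hochberg) on all genes. Calls needed an adjusted p under 0.1 and an absolute log2 difference above 0.5. DESeq2 1.42.0 was an alternative. The SE is the log2 difference divided by the square root of F. Adult against fetal liver had gender as a covariate. Interaction is male minus female in adult liver less the same in fetal liver. Levels use TMM over the 64 libraries and exonic lengths from GENCODE M21 (GRCm38). Log2 levels use a pseudocount of 0.5 CPM. Intervals and the limit of 3 reads cover counting error only. Permutations used numpy 2.4.6 and scipy 1.17.1. The scripts were tested on simulated data. Members and lists were chosen with earlier results of these data known, and 1 regulator and 1 motif of the lists are not reported here. Named genes are all 10 enzymes and the 6 genes of either pathway list called in most comparisons. Equal title numbers did not pair fetal and adult livers (24 pairs, correlation of deviations -0.14 to 0.06).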

Additional observations from a re-analysis of the deposited data

Results flagged for a closer look

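In groups of 6 embryos the embryo farthest from the others was examined for each enzyme with reads, by its gap to the nearest other embryo divided by the group's range. Of 9 such groups 5 stood out. The ratio was 1 for Cyp7b1 in females (female 12, 18 reads), for Cyp27a1 in males (male 6, 5 reads) and for Akr1d1 in males (male 4, 2 reads), since all other embryos of the group had 0 reads. The rate of about 1 in 20 that chance gives does not apply to such sparse counts, so the number of groups is not read against it. For Amacr it was 0.665 in males (male 3, 7.35 CPM) and 0.698 in females (female 12, 11.1 CPM).

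The gender effect differed between adult and fetal liver for 8 enzymes at an adjusted p under 0.1 of the edgeR interaction, on the log2 scale. Of all 13026 genes tested, 2441 had such a p with a positive value and 1943 with a negative value. The values were -1.34 for Cyp7a1, 3.30 for Cyp7b1, 0.56 for Cyp8b1, 0.26 for Hsd3b7, -0.72 for Akr1d1, 0.53 for Amacr, 0.62 for Acox2 and 0.40 for Baat. The fetal part of the Cyp7b1 value rests on 86 reads in males and 129 in females. In fetal liver the gender label and the share of reads outside genes cannot be told apart.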

How the results depend on the processing

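All 10 enzymes were called in adult against fetal liver under 10 of 11 alternatives, replicate block (10 enzymes and 8615 genes called, against 8622) included, and 9 with library totals alone; the replicate block changed no call, and title numbers did not pair the livers. All 10 were called in fetal liver against ES cells under every alternative, without each of the 4 ES lines included. For ES cells against embryos 4 enzymes were called with no filter on low counts, because more genes were tested (Baat and Cyp27a1 in addition). DESeq2 gave no adjusted p for Cyp7b1 there. Without a threshold on log2 there were 5 enzymes and 4807 genes in fetal liver by gender, 7 and 3400 in adult liver by gender, and 4384 genes in the interaction (8 enzymes). With no filter the genes called by gender were 1057 in fetal and 1518 in adult liver, against 600 and 984. With reads outside genes as a covariate 9 genes were called by gender in fetal liver, and 2 enzymes and 744 genes in the interaction (6 and 1787 otherwise). With reads aligned to several places as a covariate, added after seeing the data, 2 enzymes and 608 genes were called by gender in adult liver; the cause was not tested. Of the enzymes related to Cyp7a1, 1 otherwise, 0 were left without the 2 farthest livers, without the log and within either gender, where fewer livers were used. Depth limits Cyp7b1 in fetal liver and every enzyme in embryos.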

Other observations

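Ratios of reads within a library do not depend on how libraries are scaled. In fetal liver there were 0.0127 reads of Cyp7b1 per read of Cyp7a1 at the median of 12 males and 0.00822 in 12 females. In adult liver the medians were 7.54 in males, with a range of 2.82 to 23.2, and 0.379 in females, with a range of 0.149 to 1.16, so that the genders did not overlap. Reads of Cyp8b1 per read of Cyp7a1 had medians of 0.448 and 0.440 in fetal males and females, and of 2.79 and 0.864 in adult males and females.

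For Baat and Slc27a5, the final enzymes of the pathway, there were 0.308 ± 0.0225 reads of Baat per read of Slc27a5 in adult males and 0.246 ± 0.0115 in adult females (SD, n = 12 each). The adult genders did not overlap, with 0.278 to 0.352 in males and 0.224 to 0.257 in females. In fetal males and females the ratio was 0.277 ± 0.0410 and 0.255 ± 0.0436. The 10 enzymes together took 0.438 to 0.550% of reads on genes in adult males and 0.370 to 0.514% in adult females, against 0.0617 to 0.0842% in fetal males and 0.0718 to 0.0951% in fetal females.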
